A study of Mus musculus with 12 samples.

Results

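The genes described here are 10 alcohol and aldehyde dehydrogenase genes, namely Adh1, Adh4, Adh5, Adh7, Sdr9c7, Aldh1a1, Aldh1a7, Aldh1b1, Aldh2 and Aldh3a2, out of 24553 entries in each deposited table. They were chosen by name, with earlier results of these data known. Each of the 10 was found in 1 entry, all 10 passed the filter on low values, and Adh4 shares its entry with the pseudogene Adh6-ps1. RNA was sequenced from 12 mouse liver libraries in 4 groups of 3. The groups were normal liver of Setd2 knockout (KO) mice, normal liver of Setd2 wild-type (WT) mice, liver tumors of KO mice and liver tumors of WT mice. Normal livers came from males at an age of 8 months that received no diethylnitrosamine (DEN), a carcinogen that hepatocytes activate. Tumors came from males injected intraperitoneally with DEN when 2 weeks old (1 dose, 25 mg/kg). The labels give 8 months both as the age of these mice and as the time from injection to killing. Tumor tissue and DEN cannot be told apart when tumors are set against normal livers. Setd2 encodes the methyltransferase that trimethylates lysine 36 of histone H3. Sample titles call the knockout cKO. No source used here gives the driver of the deletion, the cells that lost the gene or whether each library came from its own mouse, so p-values measure the spread between these libraries.

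Alcohol dehydrogenases (ADH) are cytosolic, zinc-containing enzymes that pass electrons from an alcohol to NAD and leave an aldehyde. Aldehyde dehydrogenases (ALDH) then oxidize the aldehyde to an acid, in the cytosol, in mitochondria or at the endoplasmic reticulum. In liver these enzymes clear ethanol, formaldehyde and fatty aldehydes, and some of them also oxidize retinol and retinaldehyde on the way to retinoic acid.

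Values are FPKM, that is fragments per kilobase of a transcript relative to all mapped fragments, which allow levels to be compared between genes. Changes are differences of log2(FPKM + 1) ± SE from limma, with p-values adjusted over all 11671 tested entries by the Benjamini-Hochberg method and called below 0.05. The added 1 makes the change of a low gene smaller than the ratio of its FPKM values. Library sums of FPKM were 641848 to 719538 in normal livers and 423498 to 626303 in tumors, so every tumor library lay below every liver library. Entries at 1 or above numbered 10233 to 10591 in normal livers and 10788 to 11620 in tumors. Read depth is unknown. Libraries of the KO tumor group resembled each other least (Pearson's r across entries 0.924 to 0.942). Setd2 was at 1.66, 1.93 and 1.32 FPKM in KO livers, against 4.84, 3.84 and 4.70 FPKM in WT livers, a fall by 1.05 on the log2 scale (adjusted p = 0.0108). It was at 3.14, 2.18 and 1.90 FPKM in KO tumors, against 4.40, 3.61 and 4.07 FPKM in WT tumors (-0.57, adjusted p = 0.188). Alb, the albumin gene, is listed at 0 in 11 of the 12 libraries and was left out of hepatocyte sums. The other 11 hepatocyte markers were detected in all groups and summed to 25414 to 30558 FPKM in KO livers, 27469 to 32506 FPKM in WT livers, 14293 to 25232 FPKM in KO tumors and 34566 to 45542 FPKM in WT tumors. Apoa1, an apolipoprotein gene, carried much of these sums. Without it the remaining 10 summed to 18443 to 20341 FPKM in KO livers, 18320 to 23096 FPKM in WT livers, 4787 to 11126 FPKM in KO tumors and 14626 to 18299 FPKM in WT tumors.

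The promoters of 4 members are shown because the clearest differences below concern them. Adh7 and Aldh1a7 rose in KO livers, Aldh1a1 is the close relative of Aldh1a7 that did not pass the test there, and Sdr9c7 was nearly lost in KO tumors. Each runs from 250 bases before to 50 bases after a RefSeq start site on GRCm38.p6, and 9 of the 10 members had such an entry. For Aldh1a1, which has more than 1 start, the sequence belongs to the downstream start at chr19:20601718-20602017 (plus strand), and for Aldh1a7 to chr19:20727507-20727806 (minus strand). Capitals mark runs of at least 20 bases that are identical in this pair.

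Aldh1a7: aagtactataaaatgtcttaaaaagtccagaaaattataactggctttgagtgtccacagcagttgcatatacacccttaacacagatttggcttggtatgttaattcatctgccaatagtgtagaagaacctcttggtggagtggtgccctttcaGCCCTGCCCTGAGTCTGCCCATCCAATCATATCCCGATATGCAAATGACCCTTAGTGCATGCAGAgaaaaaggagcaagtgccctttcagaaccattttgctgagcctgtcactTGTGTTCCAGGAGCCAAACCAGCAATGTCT
Aldh1a1: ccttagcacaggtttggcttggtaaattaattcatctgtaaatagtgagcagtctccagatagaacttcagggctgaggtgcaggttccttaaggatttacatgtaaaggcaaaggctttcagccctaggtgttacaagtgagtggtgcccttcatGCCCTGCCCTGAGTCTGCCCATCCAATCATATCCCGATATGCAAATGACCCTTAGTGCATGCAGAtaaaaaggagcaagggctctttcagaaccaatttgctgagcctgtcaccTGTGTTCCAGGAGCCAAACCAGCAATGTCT

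Over 285 aligned bases the 2 promoters were 77.5% identical, and the longest identical run was 65 bases. Their coding sequences were 91.6% identical (1380 of 1506 bases), with an identical run of 100 bases, so some reads cannot be assigned to one of them with certainty. Among the other members compared, coding identity was lower, at 69.7% for Aldh1b1 and Aldh2 and at 61.7% to 68.8% among the 4 ADH genes. In the next pair of sequences, capitals mark a match to the AP-1 motif TGANTCA in Adh7 (chr3:138217523-138217822, plus strand) and a match to the TATA box motif TATAAA in Sdr9c7 (chr10:127898285-127898584, plus strand).

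Adh7: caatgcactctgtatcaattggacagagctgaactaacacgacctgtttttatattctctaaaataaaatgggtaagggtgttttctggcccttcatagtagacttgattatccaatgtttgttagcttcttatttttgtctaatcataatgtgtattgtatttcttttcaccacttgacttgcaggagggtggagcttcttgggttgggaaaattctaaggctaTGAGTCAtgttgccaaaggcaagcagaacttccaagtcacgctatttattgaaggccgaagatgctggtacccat
Sdr9c7: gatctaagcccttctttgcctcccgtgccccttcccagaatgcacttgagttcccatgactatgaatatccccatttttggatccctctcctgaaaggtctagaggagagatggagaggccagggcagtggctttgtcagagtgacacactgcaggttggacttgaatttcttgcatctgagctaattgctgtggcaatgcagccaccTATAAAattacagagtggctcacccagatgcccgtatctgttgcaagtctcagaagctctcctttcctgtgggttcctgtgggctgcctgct

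On either strand, TGANTCA occurred in 7.81% of 32851 RefSeq promoter windows of the same length and TATAAA in 13.6%. The antioxidant response motif TGACNNNGC, present in 12.4% of windows, was found in the window of Sdr9c7 and in none of the other member windows. CCAAT (37.4% of windows) had 2 matches in each of the Aldh1a windows shown. CACGTG (7.15% of windows) occurred once each in the windows of Adh1 and Aldh3a2. TATAAA also occurred in the windows of Adh7, Aldh1a7 and the upstream start of Adh5, and TGANTCA at the upstream start of Aldh1a1. In the windows of Adh7 and Sdr9c7 no match overlapped another. These matches describe letters and say nothing of binding.

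In KO livers the order of mean levels was Aldh2, Adh1, Aldh1a1, Aldh1a7, Adh5, Adh4, Aldh3a2, Aldh1b1, Sdr9c7 and Adh7. Libraries overlapped between Aldh2 and Adh1, Adh1 and Aldh1a1, Aldh1a7 and Adh5, and Adh4 and Aldh3a2. In WT livers Adh1 came first and Aldh2 second, Adh5 stood above Aldh1a7, and Aldh3a2 stood above Adh4. There only Aldh1b1 and Sdr9c7 overlapped among neighbors. Adh1 also came first in KO tumors and in WT tumors, with Aldh2 second in both.

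**Figure D1:**
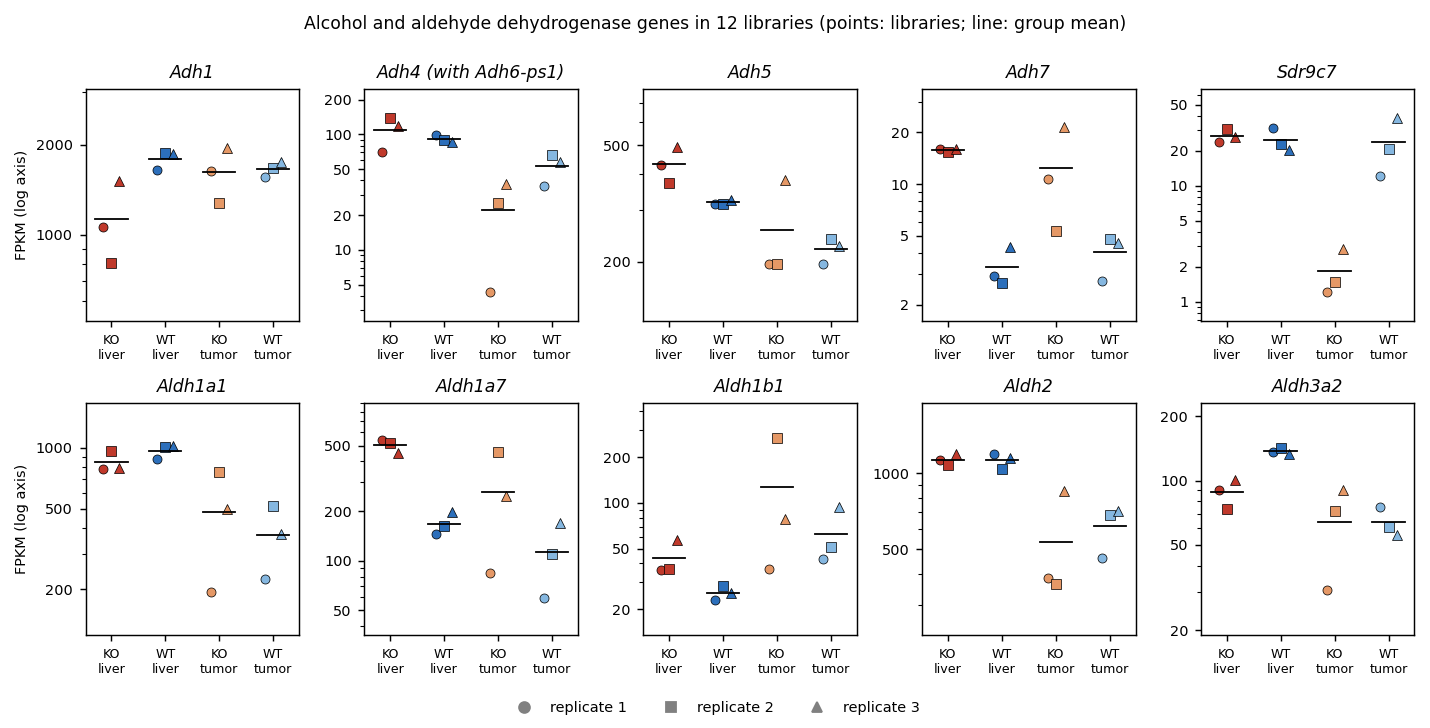
FPKM of the 10 genes (log axis) in KO normal liver, WT normal liver, KO tumor and WT tumor. Each point is a library, its shape the replicate number, and each line a group mean of 3 libraries. Adh7 and Aldh1a7 in KO livers lie above all WT livers, and Sdr9c7 in KO tumors lies below every other library.

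Setd2 KO was first compared with WT in normal liver, without carcinogen. Adh7, Aldh1a7 and Aldh1b1 rose and Aldh3a2 fell. These 4 of 10 members passed the test, against 18.1% of all tested entries that were called in this comparison. So 3 members were called higher (9.33% of all entries) and 1 lower (8.77%). In bulk tissue, fewer cells of a type and less RNA per cell cannot be told apart. The groups did not overlap for 6 of the 10 members, 4 higher and 2 lower in KO, as for 42.6% of all entries (21.9% higher and 20.7% lower). The median change of the members was 0.16, beside 0.03 over all entries. Hepatocyte markers had a median of -0.30, with 2 of 11 tested called higher and 2 lower. Stellate cell and fibroblast markers had a median of 0.49, with 1 of 10 called higher. They summed to 121 to 218 FPKM in KO livers and 73.0 to 115 FPKM in WT livers. Of the macrophage and the endothelial markers, 0 of 10 were called in each list. The part of these cell types in the members' changes was not tested.

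Adh7 (chr3:138217760-138233382, plus strand) encodes the class IV enzyme, which oxidizes retinol and ethanol and is best known from stomach and other epithelia. It was at 15.9, 15.3 and 15.9 FPKM in KO livers, against 2.91, 2.66 and 4.29 FPKM in WT livers. The KO values hardly differed from each other and all lay far above the WT values, with a ratio of means of 4.79. The rise was 1.98 ± 0.16 (adjusted p = 0.00367) and was called in all 19 alternatives tried. Adh7 remained the lowest of the 10 genes in KO livers. An antisense gene, 0610031O16Rik, overlaps its exons, and the library kit does not keep the strand, so reads of both genes cannot be told apart where they overlap. That entry was at 26.0, 26.7 and 29.5 FPKM in KO livers, against 31.4, 33.1 and 33.7 FPKM in WT livers, a difference of -0.25 ± 0.10 (adjusted p = 0.126) that ran opposite to Adh7.

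Aldh1a7 (chr19:20692953-20727562, minus strand) encodes a rodent aldehyde dehydrogenase that is a close relative of Aldh1a1. It was at 541, 521 and 451 FPKM in KO livers, against 146, 161 and 197 FPKM in WT livers. The groups were far apart, with a ratio of means of 3.01. The rise was 1.59 ± 0.15 (adjusted p = 0.00442) and missed the threshold in 1 of 19 alternatives, the fit of all 12 libraries (0.0769). Aldh1a1 (chr19:20492715-20643465, plus strand), the cytosolic enzyme that makes retinoic acid from retinaldehyde, was at 786, 958 and 796 FPKM in KO livers, against 875, 1005 and 1020 FPKM in WT livers. These groups overlapped, and the difference of -0.19 ± 0.13 did not pass (adjusted p = 0.33). The genes lie on opposite strands with 49.5 kb between their facing ends. Aldh1a7 stood at 0.689, 0.545 and 0.566 of the Aldh1a1 level in KO livers, and at 0.167, 0.160 and 0.193 of it in WT livers.

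**Figure D2:**
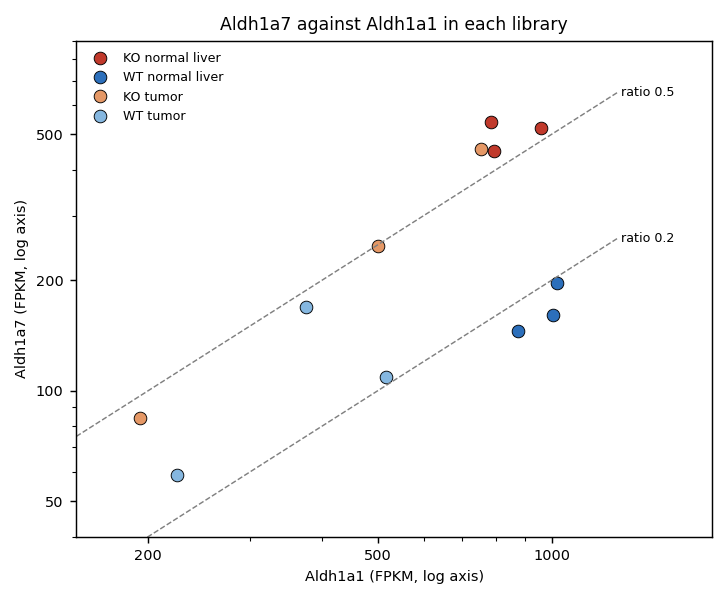
Aldh1a7 against Aldh1a1 in each library (FPKM, both axes log), with 1 point per library, colored by group, and dashed lines at Aldh1a7 to Aldh1a1 ratios of 0.2 and 0.5. KO livers lie above the 0.5 line (0.545 to 0.689) and WT livers below the 0.2 line (0.160 to 0.193), while KO tumors span 0.437 to 0.603 and WT tumors 0.212 to 0.451.

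Aldh1b1 (chr4:45799022-45804604, plus strand) encodes a mitochondrial enzyme that accepts acetaldehyde. It was at 36.1, 36.6 and 56.9 FPKM in KO livers, against 22.9, 28.4 and 25.8 FPKM in WT livers. KO values exceeded WT values in every case, and the third KO liver lay well above the others. The rise of 0.70 ± 0.19 passed narrowly (adjusted p = 0.0475) and was called in 9 of 19 alternatives. It was lost without KO liver 2, KO liver 3 or any 1 WT liver, with adjusted p reaching 0.45 over all alternatives. Summed cholangiocyte markers were at 75.8 to 86.7 FPKM in KO livers and 41.7 to 133 FPKM in WT livers, most of it Spp1, the osteopontin gene. Without Spp1 the sums were 9.27 to 20.1 FPKM in KO livers and 6.92 to 9.63 FPKM in WT livers. None of the 7 tested markers passed with limma, the list's median was 0.47, and Krt7 and Cldn7 were higher in all KO livers than in any WT liver (adjusted p = 0.0773 and 0.0561). Whether this bears on Aldh1b1 was not tested.

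Aldh3a2 (chr11:61223417-61267464, minus strand) encodes the fatty aldehyde dehydrogenase of the endoplasmic reticulum, which is mutated in human Sjögren-Larsson syndrome. It was at 90.3, 73.5 and 101 FPKM in KO livers, against 137, 142 and 133 FPKM in WT livers. Each KO liver lay below each WT liver. The fall was -0.64 ± 0.14 (adjusted p = 0.0247), called in 13 of 19 alternatives and lost without any 1 of the WT livers.

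Adh1 and Adh5 stood apart between the groups without passing the test. Adh1 (chr3:138260991-138290698, plus strand), the class I enzyme that carries most hepatic ethanol oxidation, was at 1065, 806 and 1511 FPKM in KO livers, against 1653, 1878 and 1862 FPKM in WT livers. The KO livers spread widely, with a coefficient of variation of 31.6%, against 6.99% in WT livers. The difference was -0.72 ± 0.23 (adjusted p = 0.0669), and it was called in 3 of 19 alternatives, among them the one without KO liver 3. Adh5 (chr3:138443093-138455499, plus strand), the class III enzyme that handles formaldehyde bound to glutathione and reduces S-nitrosoglutathione, was at 429, 371 and 495 FPKM in KO livers, against 315, 316 and 326 FPKM in WT livers. Here every KO liver was higher, by 0.43 ± 0.13 (adjusted p = 0.0627), and 1 of 19 alternatives called it.

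Adh4, Sdr9c7 and Aldh2 overlapped between KO and WT livers. Adh4 (chr3:138415466-138430892, plus strand), the class II enzyme, was at 70.6, 138 and 119 FPKM in KO livers, against 98.4, 90.0 and 86.6 FPKM in WT livers (0.20 ± 0.24, adjusted p = 0.577). Sdr9c7 (chr10:127898518-127911761, plus strand), a short-chain dehydrogenase known from the epidermal lipid barrier, was at 24.0, 30.6 and 26.2 FPKM in KO livers, against 31.1, 22.8 and 20.4 FPKM in WT livers (0.13 ± 0.18, adjusted p = 0.62). Aldh2 (chr5:121566027-121593824, minus strand), the mitochondrial enzyme that removes most acetaldehyde, was at 1129, 1082 and 1189 FPKM in KO livers, against 1193, 1039 and 1150 FPKM in WT livers. Its means were nearly equal, with a difference of 0.01 ± 0.12 (adjusted p = 0.963).

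Adh7, Adh1, Adh4 and Adh5 lie in this order within 238 kb of chromosome 3, all on the plus strand. In KO livers the first gene of this cluster rose, while its neighbor Adh1 had a negative difference that missed the threshold. Adh6a, another gene of the cluster, did not exceed 0.253 FPKM in any library and was not tested. As levels within a library, Adh7 stood at 0.0149, 0.0190 and 0.0106 of Adh1 in KO livers, against 0.00176, 0.00142 and 0.00230 of Adh1 in WT livers, and these ranges did not overlap.

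**Figure D3:**
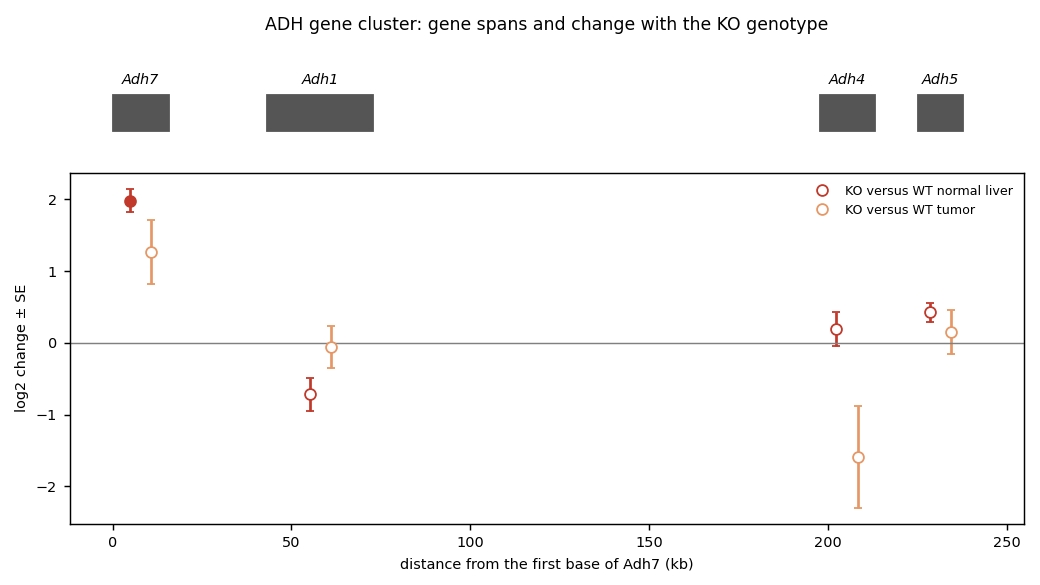
Spans of the 4 ADH genes by distance from the first base of Adh7 (kb, upper panel) and their log2 change ± SE with KO in normal liver and in tumor (lower panel, 3 libraries against 3, filled where adjusted p is below 0.05). The filled point is the rise of Adh7 in KO livers (1.98), beside -0.72 for Adh1, 0.20 for Adh4 and 0.43 for Adh5.

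The same genotypes were then compared in tumors. None of the 10 members passed the test, and 0.0771% of all entries did. At an unadjusted p below 0.05, 2 members differed, against 17.6% of all entries. The groups did not overlap for the same number, Adh7 higher and Sdr9c7 lower in KO tumors, and for 23.9% of all entries (13.8% higher and 10.1% lower). The median change was 0.05 over the members and 0.02 over all entries. Hepatocyte markers had a median of -1.12, with 0 of 11 tested called. Medians were 0.91 for Kupffer cell and macrophage markers and 1.26 for stellate cell and fibroblast markers, with 0 of 10 called in each. For the KO effect in tumor minus that in normal liver, these medians were -0.76, 0.93 for stellate cell and 1.15 for macrophage markers. The part of these cell types in the members' differences was not tested.

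Sdr9c7 differed most between KO and WT tumors among the members. It was at 1.20, 1.47 and 2.85 FPKM in KO tumors, against 12.1, 20.8 and 38.1 FPKM in WT tumors. The groups were wide apart, with a ratio of means of 0.0776, although WT tumors ranged widely themselves. The difference of -3.02 ± 0.42 fell just short of the threshold (adjusted p = 0.0512) and was called in 5 of 19 alternatives, with adjusted p from 0.0014 to 0.226. One of these left out KO tumor 3, the library with the highest KO value.

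Adh7 was at 10.7, 5.38 and 21.3 FPKM in KO tumors, against 2.73, 4.81 and 4.53 FPKM in WT tumors. All KO tumors were higher, with a ratio of means of 3.10, but they spread nearly 4-fold among themselves (highest over lowest 3.97). The difference was 1.26 ± 0.45 (adjusted p = 0.214). Aldh1a7 was at 84.3, 456 and 248 FPKM in KO tumors, against 58.9, 109 and 169 FPKM in WT tumors. These groups overlapped (1.04 ± 0.65, adjusted p = 0.463). The KO effects on Adh7 and on Aldh1a7 were not shown to differ between tumor and normal liver, with interactions of -0.72 ± 0.51 (adjusted p = 0.429) and -0.55 ± 0.73 (0.693).

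The remaining members overlapped between KO and WT tumors. Adh4 was at 4.30, 25.5 and 37.2 FPKM in KO tumors, against 36.1, 65.9 and 57.6 FPKM in WT tumors. KO tumor 1 was the lowest of all libraries, and the groups touched only where KO tumor 3 passed WT tumor 1 (-1.59 ± 0.71, adjusted p = 0.307). Aldh1b1 was at 36.6, 268 and 78.7 FPKM in KO tumors, against 43.0, 51.5 and 93.5 FPKM in WT tumors. KO tumor 2 alone was far above the rest, and the difference of 0.63 ± 0.70 (adjusted p = 0.68) fell to -0.14 without it. KO tumor 2 also had the highest summed cholangiocyte markers, 3545 FPKM, where KO tumors 1 and 3 had 574 and 278 FPKM and WT tumors 71.1 to 652 FPKM. Spp1 alone gave 3505 FPKM of that sum. Without Spp1, KO tumors summed to 20.8, 40.1 and 23.7 FPKM, against 10.6, 20.5 and 18.6 FPKM in WT tumors, while Krt7 and Krt19, the keratin genes of bile duct cells, were lowest in KO tumor 2 among the KO tumors. Whether this bears on Aldh1b1 was not tested. Differences of Adh1, Adh5, Aldh1a1, Aldh2 and Aldh3a2 lay between -0.30 and 0.25, with adjusted p from 0.731 to 0.943.

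**Figure D4:**
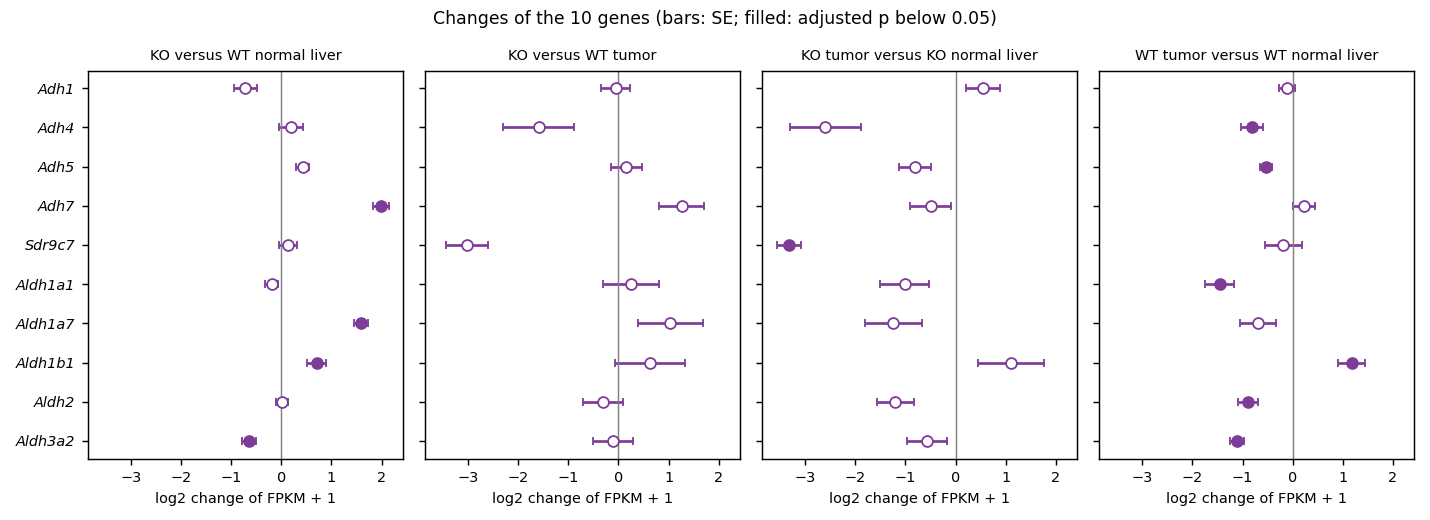
Log2 change of FPKM + 1 for the 10 genes in the 4 comparisons of 2 groups, with SE bars, filled where the adjusted p is below 0.05 (3 libraries against 3). Filled points number 4 for KO against WT normal liver, 0 for KO against WT tumors, 1 for KO tumors against KO livers and 6 for WT tumors against WT livers.

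KO tumors were next compared with KO normal livers. One member was called, Sdr9c7, which was lower. Of all entries 14.3% were called, and 5.17% of all entries were called lower. The groups did not overlap for 4 members, all lower in tumors (Adh4, Sdr9c7, Aldh1a1 and Aldh2), against 41.1% of all entries (19.8% lower). The median change was -0.91 over the members and -0.02 over all entries. Hepatocyte markers had a median of -1.30, and 1 of 11 tested was called, lower. Some markers of other cell types were higher in KO tumors. Of the stellate cell and fibroblast markers 5 of 10 were called higher (median 1.28), where 9.09% of all entries were, and they summed to 204 to 311 FPKM in KO tumors and 121 to 218 FPKM in KO livers. Of the Kupffer cell and macrophage markers 4 of 10 were called higher (median 0.50), with sums of 321 to 617 FPKM in KO tumors and 202 to 275 FPKM in KO livers. C1qa, C1qb, Cd68 and Csf1r were higher in every KO tumor than in any KO liver. Clec4f was at 12.5, 2.55 and 89.7 FPKM in KO tumors, against 48.6, 34.6 and 32.1 FPKM in KO livers. Cd5l, Vsig4 and Timd4 were likewise below all KO livers in KO tumors 1 and 2 and above them in KO tumor 3. No marker of these lists was at 0 in all libraries. The part of these cell types in the members' changes was not tested.

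Sdr9c7 was at 1.20, 1.47 and 2.85 FPKM in KO tumors, against 24.0, 30.6 and 26.2 FPKM in KO livers. Tumor values were an order of magnitude lower, with a ratio of means of 0.0683. The fall was -3.33 ± 0.24 (adjusted p = 0.00364) and was called in all 19 alternatives. In WT mice the groups overlapped. WT tumors had 12.1, 20.8 and 38.1 FPKM, against 31.1, 22.8 and 20.4 FPKM in WT livers (-0.18 ± 0.38, adjusted p = 0.757). The difference between the KO effects in tumor and in liver was itself tested and called (-3.15 ± 0.49, adjusted p = 0.0208), the one member called among 10, where 2.08% of all entries were (0.934% with a negative value). That call was lost without KO liver 2, KO liver 3, WT liver 2, WT liver 3 or WT tumor 2, with adjusted p up to 0.0717.

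Adh4 came closest to the threshold among the others. Its 4.30, 25.5 and 37.2 FPKM in KO tumors all lay below the 70.6, 138 and 119 FPKM in KO livers, by -2.60 ± 0.70 (adjusted p = 0.0509). The difference was called in 7 of 18 alternatives. Aldh2 was at 384, 363 and 848 FPKM in KO tumors, against 1129, 1082 and 1189 FPKM in KO livers (-1.20 ± 0.37, adjusted p = 0.0693). KO tumor 3 stood apart from the other tumors, and without it the adjusted p was 0.00416. Adh5 was at 197, 197 and 380 FPKM in KO tumors, against 429, 371 and 495 FPKM in KO livers (-0.81 ± 0.32, adjusted p = 0.127), and without KO tumor 3 its adjusted p was 0.013. That library was also the one whose hepatocyte sum, 25232 FPKM, was nearest to those of the livers. Much of this sum was Apoa1. Without Apoa1, KO tumor 3 summed to 11126 FPKM, the highest of the KO tumors, against 18443 to 20341 FPKM in KO livers. Whether this bears on Adh5 or Aldh2 was not tested.

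Aldh1a1 was at 193, 755 and 500 FPKM in KO tumors, against 786, 958 and 796 FPKM in KO livers, a separation without overlap (-1.01 ± 0.49, adjusted p = 0.192). Aldh1a7, Aldh3a2 and Adh7 had negative differences of -1.24, -0.57 and -0.50, and Aldh1b1 and Adh1 positive ones of 1.11 and 0.55. Adh1 was at 1640, 1280 and 1958 FPKM in KO tumors, against 1065, 806 and 1511 FPKM in KO livers. Aldh3a2 was at 30.7, 72.4 and 90.0 FPKM in KO tumors, against 90.3, 73.5 and 101 FPKM in KO livers. For these 5 genes tumors and livers overlapped, and adjusted p ran from 0.172 to 0.435.

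WT tumors were set against WT normal livers in the same way. Of the 10 members 6 were called, where 17.0% of all entries were. Adh4, Adh5, Aldh1a1, Aldh2 and Aldh3a2 fell (8.96% of all entries were lower), and Aldh1b1 rose (8.01% higher). The same 6 did not overlap between the groups, as did 42.3% of all entries. The median change was -0.61 over the members and -0.04 over all entries. Hepatocyte markers had a median of -0.62, with 3 of 11 lower and 1, Apoa1, higher. Stellate cell and fibroblast markers were called higher for 3 of 10 (median 0.35) and summed to 110 to 119 FPKM in WT tumors and 73.0 to 115 FPKM in WT livers. B and plasma cell markers were called higher for 3 of 4 (median 1.08). Kupffer cell and macrophage markers were called lower for 1 of 10 (median -0.65). They summed to 104 to 342 FPKM in WT tumors and 201 to 312 FPKM in WT livers. Endothelial markers were called lower for 1 of 10 (median -0.12) and erythroid genes for 1 of 4 (median -0.61). The part of these cell types in the members' changes was not tested.

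Aldh3a2 had the smallest adjusted p. It was at 75.6, 60.8 and 55.6 FPKM in WT tumors, against 137, 142 and 133 FPKM in WT livers. Tumors had less than the livers without exception, with a ratio of means of 0.466, and the fall was -1.10 ± 0.14 (adjusted p = 0.00618), called in 18 of 19 alternatives. Aldh1a1 fell to 224, 516 and 375 FPKM in WT tumors, against 875, 1005 and 1020 FPKM in WT livers (-1.45 ± 0.29, adjusted p = 0.0205). Aldh2 was at 461, 684 and 708 FPKM in WT tumors, against 1193, 1039 and 1150 FPKM in WT livers (-0.89 ± 0.20, adjusted p = 0.0283). For both of them WT tumor 1 was the lowest of the WT libraries.

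Adh5 was at 197, 240 and 226 FPKM in WT tumors, against 315, 316 and 326 FPKM in WT livers, a fall of -0.53 ± 0.13 (adjusted p = 0.0331). The livers agreed closely, with a coefficient of variation of 1.93%, against 10.1% in the tumors. Adh4 was at 36.1, 65.9 and 57.6 FPKM in WT tumors, against 98.4, 90.0 and 86.6 FPKM in WT livers (-0.82 ± 0.22, adjusted p = 0.0461). Aldh1b1 ran the other way, at 43.0, 51.5 and 93.5 FPKM in WT tumors, against 22.9, 28.4 and 25.8 FPKM in WT livers (1.18 ± 0.27, adjusted p = 0.0306). Summed cholangiocyte markers were at 71.1, 652 and 396 FPKM in these tumors, against 41.7, 133 and 48.1 FPKM in WT livers, and 2 of the 7 tested passed, both higher. Without Spp1 the sums were 10.6, 20.5 and 18.6 FPKM in WT tumors, against 8.83, 9.63 and 6.92 FPKM in WT livers. Whether this bears on Aldh1b1 was not tested. The calls of Adh4, Adh5, Aldh1a1, Aldh1b1 and Aldh2 were each lost without any 1 of the WT livers, and those of Adh5, Aldh1b1 and Aldh2 also without WT tumor 2. Without WT tumor 3, 4 members were called, against 6 with all libraries.

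Adh1, Adh7, Aldh1a7 and Sdr9c7 did not pass between WT tumors and WT livers. Adh1 was at 1563, 1678 and 1750 FPKM in WT tumors, against 1653, 1878 and 1862 FPKM in WT livers (-0.11 ± 0.16, adjusted p = 0.655), with a sign that turned under TPM or quantile scaling. Adh7 was at 2.73, 4.81 and 4.53 FPKM in WT tumors, against 2.91, 2.66 and 4.29 FPKM in WT livers (0.22 ± 0.22, adjusted p = 0.511). All 6 of these libraries lay below the 3 KO livers. Aldh1a7 was at 58.9, 109 and 169 FPKM in WT tumors, against 146, 161 and 197 FPKM in WT livers (-0.69 ± 0.36, adjusted p = 0.21). No interaction other than that of Sdr9c7 passed, so for the other 9 members the tumor changes were not shown to differ between KO and WT mice. The KO tumor and KO liver groups and the WT groups each enter more than 1 of these comparisons.

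Across the 12 libraries some members followed each other. Pearson's r of log2(FPKM + 1) was 0.88 for Adh5 and Aldh2, 0.85 for Adh4 and Sdr9c7 and 0.83 for Adh4 and Aldh2. It was lowest for Adh1 and Aldh1a7 (-0.61) and for Aldh1b1 and Aldh2 (-0.57). These are descriptions over 12 libraries in which the group differences themselves enter. By the same measure, the tested genes most like Adh5 were Cyp2d22 (0.99), a cytochrome P450 gene, and Asgr1 (0.98), the hepatic asialoglycoprotein receptor. Most like Aldh2 were the mitochondrial enzyme genes Gstk1 (0.99) and Gcdh (0.98), and most like Adh4 were Ghr (0.96), the growth hormone receptor, and Cyp2d40 (0.96). Sdr9c7 was closest to Pcbd1 (0.95), a tetrahydrobiopterin-recycling enzyme, and to the steroid enzyme gene Hsd3b5 (0.95). Adh7 was closest to Ggh (0.95), a folate hydrolase, and Cluap1 (0.91), and Aldh1a7 to Slc27a4 (0.94), a fatty acid transport protein gene. Aldh1a1 was closest to Ces1g (0.96) and Plekhb1 (0.95), Aldh1b1 to Ear2 (0.94) and Spon2 (0.93), Aldh3a2 to Klf11 (0.93) and Vwa8 (0.92), and Adh1 to Cxadr (0.90) and Gar1 (0.89).

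Other ADH and ALDH genes were followed with 18 symbols, of which 17 matched an entry and 10 were tested. A pair of the matched symbols shares a joined entry, which was not tested. In KO against WT livers 1 was called higher and 0 lower, where 18.1% of all entries were called. Aldh16a1 was at 40.5, 47.3 and 54.7 FPKM in KO livers, against 34.8, 32.6 and 27.6 FPKM in WT livers (0.57 ± 0.15, adjusted p = 0.042), and the list's median was -0.16. This call held in 10 of 19 alternatives and was lost without KO liver 2, KO liver 3 or any 1 WT liver. In KO against WT tumors none was called and the median was 0.00. Aldh3b1, an enzyme of lipid-derived aldehydes, had 8.49, 10.7 and 5.08 FPKM in KO tumors, against 3.28, 1.42 and 1.20 FPKM in WT tumors (1.63 ± 0.34, adjusted p = 0.0927). It was higher in KO tumors than in KO livers (1.76 ± 0.25, adjusted p = 0.0116), while Aldh8a1 (-1.02) and Aldh6a1 (-1.35), an enzyme of valine breakdown, were lower, with a list median of -0.74. These 3 calls stand beside 14.3% of all entries. The call of Aldh3b1 was lost without KO liver 2 or KO liver 3, and those of Aldh6a1 and Aldh8a1 without any 1 KO liver, KO tumor 1 or KO tumor 2. In WT tumors against WT livers 1 was higher (8.01% of all entries) and 6 were lower (8.96%), with a median of -0.54. The rise was that of Aldh18a1, which makes the precursor of proline (1.35 ± 0.15, adjusted p = 0.00381). The falls included Aldh4a1 of proline breakdown (-0.82), Aldh7a1 of lysine breakdown (-0.88) and Aldh5a1 of succinic semialdehyde oxidation (-0.58). Those of Aldh4a1 and Aldh7a1 were lost without WT liver 3, and that of Aldh5a1 without any 1 WT liver or WT tumor 2.

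Ethanol and aldehyde handling outside these families was followed with 9 genes, of which 8 were tested. In KO livers the aldehyde oxidase genes ran in opposite directions. Aox3 was at 59.9, 57.4 and 38.3 FPKM in KO livers, against 165, 106 and 118 FPKM in WT livers (-1.31 ± 0.22, adjusted p = 0.0161). Aox1 was at 47.8, 63.2 and 75.9 FPKM in KO livers, against 42.8, 29.5 and 34.3 FPKM in WT livers (0.78 ± 0.20, adjusted p = 0.0414). These were the only 2 calls of the 8, where 18.1% of all entries were called, and the list's median was -0.10. The call of Aox3 was lost without WT liver 3. That of Aox1 held in 11 of 19 alternatives and was lost without KO liver 2, KO liver 3, WT liver 2 or WT liver 3. None was called between KO and WT tumors (median 0.02). In KO tumors against KO livers 1 gene was called, Aox3 (-1.08, adjusted p = 0.0313), against 14.3% of all entries, with a median of -0.84. It was lost without any 1 KO liver or KO tumor 1. Cyp2e1, the microsomal ethanol oxidase that also activates DEN, was at 173, 66.5 and 2796 FPKM in KO tumors, against 4167, 4103 and 3093 FPKM in KO livers, a difference of -3.55 ± 1.23 short of the threshold (adjusted p = 0.0919). In WT tumors it fell to 1222, 2140 and 1352 FPKM, against 4800, 4546 and 5181 FPKM in WT livers (-1.67 ± 0.25, adjusted p = 0.00979). Aox3 (-1.32) and Akr1a1 (-0.53), an aldehyde reductase gene, fell there too, making 3 falls and 0 rises with a median of -0.57, where 17.0% of all entries were called. Without WT liver 3 each of these 3 calls was lost, without WT liver 1 those of Aox3 and Akr1a1, and without WT liver 2, WT tumor 2 or WT tumor 3 that of Akr1a1.

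Retinoid genes, the neighbors of Adh7 and Aldh1a1 in the path from retinol and carotenoids to retinoic acid, were 27, of which 24 were tested. A pair of the tested retinol dehydrogenase genes shares a joined entry, which is counted for each of them. In KO livers 5 were higher (9.33% of all entries) and 2 lower (8.77%), with a median of 0.12. Bco1, which cleaves beta-carotene in the middle, was at 1.17, 0.98 and 1.24 FPKM in KO livers, against 3.49, 3.65 and 3.43 FPKM in WT livers (-1.09 ± 0.11, adjusted p = 0.00559). Bco2, which cleaves carotenoids off the middle, was at 21.1, 32.7 and 43.2 FPKM in KO livers, against 9.27, 9.16 and 8.00 FPKM in WT livers (1.71 ± 0.24, adjusted p = 0.0117). The 2 cleavage genes thus moved in opposite directions. Rdh14, a retinol dehydrogenase gene, was higher by 0.45 (adjusted p = 0.0419), a call that held in 7 of 19 alternatives and was lost without any 1 of the 6 libraries. That of Bco2 was lost without WT liver 3. Between KO and WT tumors none was called (median -0.27). Rdh11 was at 8.25, 20.1 and 13.2 FPKM in KO tumors, against 38.9, 47.9 and 64.3 FPKM in WT tumors (-1.84 ± 0.34, adjusted p = 0.0783).

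In KO tumors against KO livers 2 retinoid genes were higher (9.09% of all entries) and 5 lower (5.17%), with a median of -0.65. Bco1 rose by 2.11, while Bco2 (-2.21) and Dhrs4 (-1.10), a carbonyl reductase gene, fell. Each of these calls was lost without KO liver 2 or KO liver 3, those of Bco1 and Dhrs4 also without KO liver 1, those of Bco2 and Dhrs4 without KO tumor 1, and that of Dhrs4 without KO tumor 2. In WT tumors against WT livers 3 were higher (8.01% of all entries) and 4 lower (8.96%), with a median of -0.16, among them Bco1 (1.78) and Rdh5 (0.80) upward and Cyp26b1 (-2.12), which degrades retinoic acid, downward. The call of Rdh5 was lost without WT liver 3. The interaction was called for 2 of the 24, beside 2.08% of all entries. They were Bco2 (-2.27, adjusted p = 0.0295), called in 16 of 24 alternatives, and Rdh14 (-0.99, adjusted p = 0.0422), called in 10 of 24. The call of Rdh14 was lost without any 1 library other than KO tumor 3, and that of Bco2 without KO liver 2, KO liver 3, KO tumor 1, WT liver 2, WT liver 3, WT tumor 2 or WT tumor 3.

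**Figure D5:**
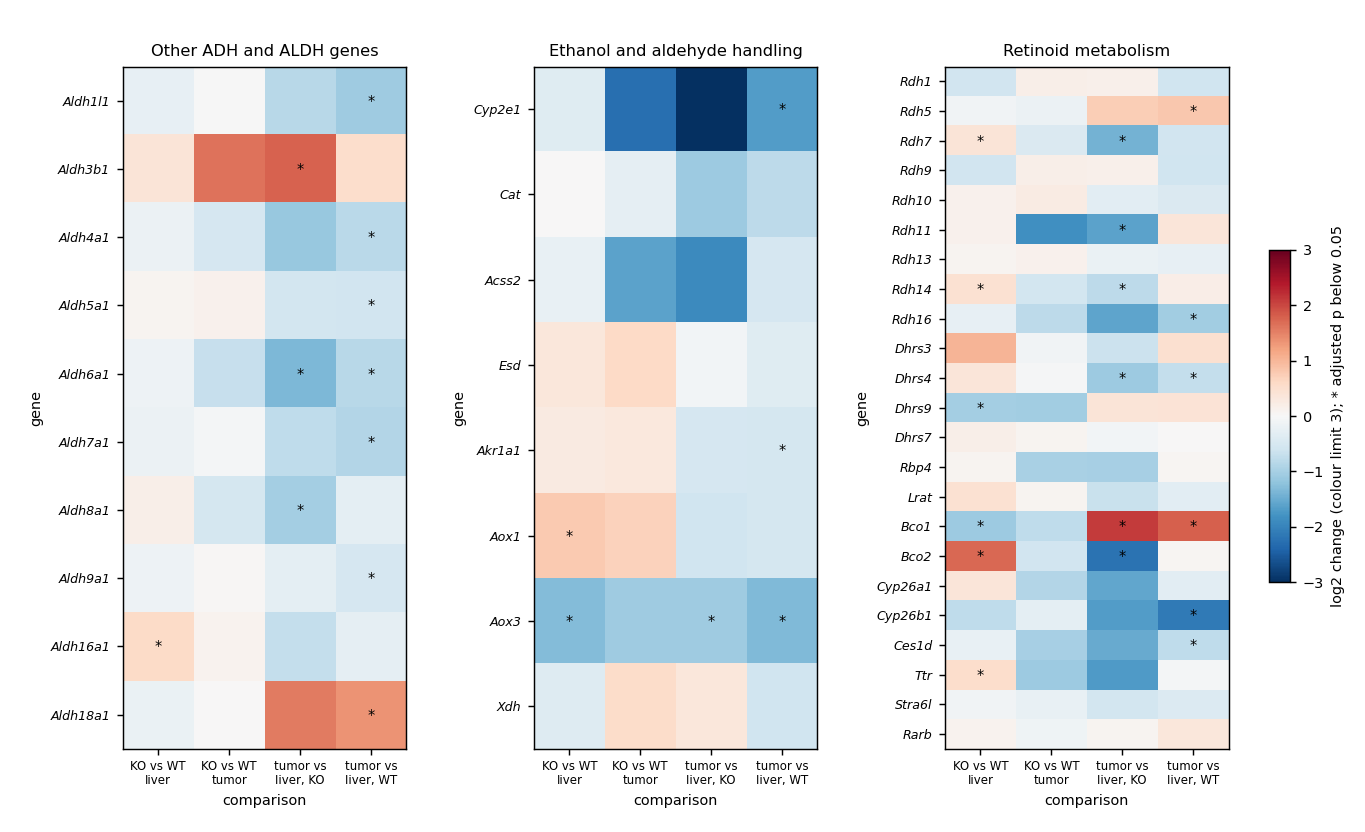
Log2 change of FPKM + 1 (color, limit 3 in either direction) for tested genes of 3 lists in the 4 comparisons of 2 groups, with an asterisk where the adjusted p is below 0.05. Asterisks gather in the columns of tumors against livers and of KO against WT liver, and the column of KO against WT tumors has 0.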

How the data were processed

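Polyadenylated RNA was made into libraries without strand information, according to the protocols in the labels. For each library the authors deposited a table of FPKM values. TopHat2 2.1.1, Cufflinks 2.2.1 and build mm10 are named in the submitters' processing notes. No source used here gives their options or the annotation. Steps between low values revealed no whole reads (at most 3.22% of ratios shared a value), so depth is unknown.

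Entries with an FPKM of at least 1 in at least 3 of 12 libraries (11671 of 24553) were fitted as log2(FPKM + 1) with limma 3.58.1 in R 4.3.3, with a variance trend, two-sided tests and Benjamini-Hochberg adjustment. Each comparison used its own 6 libraries, and the interaction all 12. In simulated data, 71% and 93% of genes changed by 1 and 2 log2 units were recovered for KO against WT liver, and 28% and 76% for KO against WT tumor. For KO tumor against KO liver 31% and 76% were recovered, and for WT tumor against WT liver 60% and 92%. Genes low in the reference group, such as Adh7 in WT livers, were not changed in the simulation. Each gene had the same spread in both groups there, whereas the real groups differ in spread.

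Some genes that the naming rule picks are not reported here and stay in every count. The members and lists were chosen with earlier results of these data known. Besides the members, Setd2 and up to 4 genes per list and comparison with the smallest adjusted p were named, with the 2 singly named entries most like each member, leaving out Gm and Rik gene models other than the antisense entry of Adh7. Gene coordinates are those of GENCODE M21 on GRCm38, promoters those of RefSeq. Alternatives were other pseudocounts, filters and scalings, 1 fit of all 12 libraries, a replicate block, zeros as missing, removal of the trend with transcript length, and leaving out each library. Restricting the entries to those with a known length, or to those with 1 name found once, was chosen after seeing the data.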

Additional observations from a re-analysis of the deposited data

Results flagged for a closer look

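Sdr9c7 was singled out because its difference between KO and WT differed by tissue in a direct test. The KO effect in tumor minus the KO effect in normal liver was -3.15 on the log2 scale (limma interaction, adjusted p = 0.0208). The gene was at 1.20 to 2.85 FPKM in KO tumors and 12.1 to 38.1 FPKM in WT tumors, and at 24.0 to 30.6 FPKM in KO livers and 20.4 to 31.1 FPKM in WT livers. All 3 KO tumors lay below all other 9 libraries.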

How the results depend on the processing

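Of the 10 members, 4 were called for KO against WT liver, 0 for KO against WT tumor, 1 for KO tumor against KO liver, 6 for WT tumor against WT liver and 1 in the interaction. Without a filter on low values the counts for KO against WT liver and WT tumor against WT liver were both 2. With 1 fit of all 12 libraries the comparisons of 2 groups gave 1, 1, 4 and 0. Quantile normalization gave 3 for WT tumor against WT liver, and rescaling to a common sum (TPM) gave 4. For KO tumor against KO liver, a pseudocount of 5, rescaling to a common sum (TPM), median-of-ratios scaling and removal of the length trend each gave 2. For KO against WT tumor, TPM scaling and both restrictions of the entries chosen after seeing the data each gave 1, Sdr9c7. Leaving out 1 library, which also leaves fewer samples, gave 2 to 4, 0 to 1, 1 to 4, 1 to 6 and 0 to 1 calls in the order above.

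With the replicate number as a block the counts of members were 2, 0, 2, 3 and 1. Same-numbered libraries correlated at -0.28 to 0.35, so the numbers do not show a pairing. Over all entries, 2113, 9, 1664, 1981 and 243 were called. The block gave 153, 0, 1420, 1235 and 114. No filter gave 868, 1, 543, 1257 and 56, the fit of 12 libraries 1144, 1017, 3340 and 1105, and a mean FPKM of 5 gave 670, 1263 and 133 for the last 3 counts. The KO against WT tumor count was 24, 14 and 16 with TPM, median-of-ratios and quantile scaling, 14 with the length trend removed, and 46 and 44 with the later restrictions. TPM gave 120 interactions. Leaving out 1 library gave 240 to 1964, 0 to 266, 129 to 2981, 454 to 2134 and 7 to 1368.

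None of the differences that changed sign was called. With TPM they were -0.0026 for Aldh2 in KO against WT liver, 0.0647 and 0.193 for Adh1 in KO against WT tumor and WT tumor against WT liver, 0.106 for Sdr9c7 in WT tumor against WT liver and 0.0581 for the Aldh1b1 interaction. Quantile normalization gave 0.161, 0.413 and 0.0082 for the same Adh1 and Aldh1b1 results. Median-of-ratios gave -0.0162 for Aldh2, and removal of the length trend -0.0469 for Adh4, in KO against WT liver. Leaving out 1 library, KO against WT liver ran from -0.0003 to 0.48 for Adh4 and from -0.0488 to 0.0510 for Aldh2. KO against WT tumor ran from -0.42 to 0.34 for Aldh3a2, -0.20 to 0.11 for Adh1, -0.18 to 0.80 for Aldh1a1, -0.14 to 1.28 for Aldh1b1 and -0.16 to 0.31 for Adh5. The interaction ran from -0.84 to 0.58 for Aldh1b1 and -1.10 to 0.11 for Aldh1a7, and WT tumor against WT liver from -0.59 to 0.20 for Sdr9c7. TPM moved the median of all entries to 0.337 for KO tumor against KO liver, 0.211 for WT tumor against WT liver, 0.119 for KO against WT tumor and 0.132 for the interaction. The cause of these changes was not tested.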
